A study of Mus musculus with 6 samples.

Results

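The 36 genes described here mark the endothelial cells that line blood and lymphatic vessels, and they were followed in whole colon of young mice that lack the signal Indian hedgehog (Ihh) in the gut epithelium. The members were taken from a list of 36 gene symbols, with the brightest row of the array table kept for each gene, and 36 of 36 were among the 19938 genes measured. Colon was compared between 3 mutant mice (VilCre;Ihhflox/flox, in which the epithelial villin promoter drives the Cre recombinase that removes Ihh) and 3 control littermates labelled wild type, with 1 Affymetrix Mouse Gene 1.0 ST array per mouse. The labels do not say whether the controls carried Cre or a floxed allele. Mutant 1 and control 1 came from the same litter, and so on to litter 3. The series' design text gives postnatal day 12, while the growth protocol gives a range from day 9 to day 12, so the age of a single mouse is not known. Each value is an RMA expression value on the log2 scale, and each change is the mutant value minus the control value, ± its standard error in the limma fit with the litter as a block.

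Endothelial cells are joined to each other by VE-cadherin and claudins, and they carry receptors for angiopoietins, apelin and adrenomedullin. Their identity is held by transcription factors of the ETS and SOXF families. Lymphatic endothelium in addition needs the factor PROX1, and many of its genes differ from those of blood vessels. In gut wall these cells lie in the mesenchyme beneath the epithelium, which is the tissue that receives epithelial hedgehog signals.

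Endothelial genes were lower in the mutant colon. Of 36 members, 14 fell, 0 rose and 22 did not pass the test (limma, adjusted p under 0.05), while 2.11% of all genes tested fell and 1.66% rose. The 14 were Plvap, Cd34, Cdh5, Emcn, Cd93, Aplnr, Ramp2, Ptprb, Calcrl, Tie1, Clec14a, Robo4, Tek and Sox17. At an unadjusted p under 0.05 the limma fit counted 26 members, all with a change below 0, and 8.03% of all genes were lower at that level. The change was below 0 for 35 of 36 members, with Tal1 as the exception at 0.04, and 47.5% of all genes lay below 0. In 29 members the mutant was lower than its littermate in 3 of 3 litters, against 17.1% of all genes. In 23 members all 3 mutants lay below all 3 controls, against 9.78% of all genes. The median change was -0.31 over the members and 0.01 over all genes, and it was -0.33, -0.30 and -0.30 in litters 1, 2 and 3. The mean level over the 36 members was 8.10 to 8.30 in controls and 7.76 to 7.96 in mutants. In whole tissue, fewer endothelial cells and less RNA per endothelial cell cannot be told apart.

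The size of these falls was moderate, and the count depended on litter 3. The largest change of a member was -0.70, in Emcn. Without litter 3 the count of members that fell was 2 (Plvap and Ramp2), without litter 1 it was 10 and without litter 2 it was 11, while the median stayed between -0.34 and -0.31. Of all genes 1.5% fell without litter 3, 2.43% without litter 1 and 1.98% without litter 2, against 2.11% with all litters. The calls of Cdh5, Tie1, Robo4 and Sox17 were lost without litter 1, and those of Tek, Tie1, Robo4 and Cd34 without litter 2. Without the litter block 9 members fell, beside 1.83% of all genes, and 8 of the 9 were among the 14. Plvap, Tie1, Robo4, Aplnr, Sox17 and Cd93 no longer passed and Stab1 did.

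**Figure D1:**
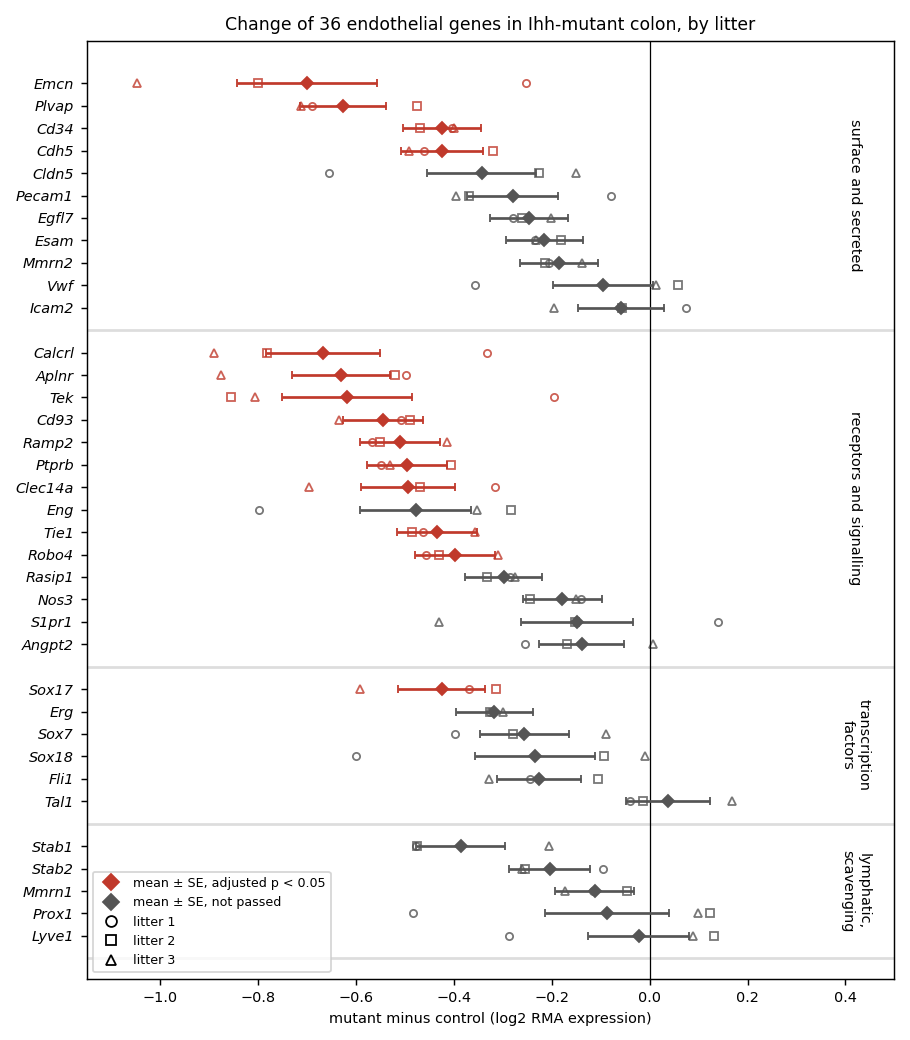
Mutant minus control for each of the 36 members on the log2 scale (x axis), with the mean ± standard error of the limma fit as a diamond and the 3 litters as open symbols; red marks the 14 members that fell. Nearly every diamond lies left of 0, with Emcn, Calcrl, Aplnr, Plvap and Tek farthest from it and Tal1 on its right.

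The promoters of members that fell are shown here because those genes moved together and because ETS and SOX factors are known regulators of endothelial genes. RefSeq promoter windows on GRCm38.p6 were at hand for 17 members, 7 of which had fallen (Calcrl, Cd34, Clec14a, Emcn, Robo4, Tek and Tie1). The 250 bases before the transcript start were searched on both strands. The hexamer CAGGAA, a form of the ETS core GGAA, was present in 7 of these 7 members, which have 1 window each. Counted by gene, it was also in 6 of the other 10 members. These 10 have 16 windows, as some have several starts, and 7 of the 16 held it. Of 32851 windows of the same length from all genes, 25.7% held it. This spelling was singled out after several had been counted. The core GGAA, which every CAGGAA and AGGAAG also holds, was in 7 of 7 and in 9 of the other 10 members. It was in 14 of the 16 other windows and in 93.4% of all windows. AGGAAG, which overlaps CAGGAA, was in 5 of 7 and in 6 of the other 10 members. It was in 7 of the 16 other windows and in 29.5% of all windows. CCGGAAG was in 0 of 7, in 0 of the 16 and in 6.91%. The SOX core ACAAT was in 6 of 7 (all but Tie1) and in 2 of the other 10 members. It was in 2 of the 16 other windows, against 27.7% of all windows. The GATA site AGATAA was in 0 of 7, in 2 of the 16 and in 9.99% of all windows, and the GLI site GACCACCCA was in 0 of 7, in 0 of the 16 and in 0.225%. These matches describe letters in short windows and do not show binding. The windows of 5 of the 7 members follow, 5′ to 3′ on the strand of the gene, with CAGGAA or its reverse complement TTCCTG in capitals.
Tek (chr4:94739039-94739288, plus strand): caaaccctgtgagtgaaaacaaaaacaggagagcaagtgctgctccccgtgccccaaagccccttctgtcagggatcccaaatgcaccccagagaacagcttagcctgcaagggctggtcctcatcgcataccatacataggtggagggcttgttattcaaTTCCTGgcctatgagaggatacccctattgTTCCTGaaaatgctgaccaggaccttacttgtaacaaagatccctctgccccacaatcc
Tie1 (chr4:118489850-118490099, minus strand): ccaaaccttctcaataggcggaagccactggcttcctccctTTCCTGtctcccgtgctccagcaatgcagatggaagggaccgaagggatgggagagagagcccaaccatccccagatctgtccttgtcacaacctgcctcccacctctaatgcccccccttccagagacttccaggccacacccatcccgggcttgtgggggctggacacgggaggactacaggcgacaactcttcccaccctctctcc
Robo4 (chr9:37401722-37401971, plus strand): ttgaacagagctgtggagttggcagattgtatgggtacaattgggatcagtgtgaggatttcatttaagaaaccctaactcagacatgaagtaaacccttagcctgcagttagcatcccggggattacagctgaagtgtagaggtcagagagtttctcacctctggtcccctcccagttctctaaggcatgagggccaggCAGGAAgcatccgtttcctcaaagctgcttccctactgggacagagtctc
Calcrl (chr2:84425267-84425516, minus strand): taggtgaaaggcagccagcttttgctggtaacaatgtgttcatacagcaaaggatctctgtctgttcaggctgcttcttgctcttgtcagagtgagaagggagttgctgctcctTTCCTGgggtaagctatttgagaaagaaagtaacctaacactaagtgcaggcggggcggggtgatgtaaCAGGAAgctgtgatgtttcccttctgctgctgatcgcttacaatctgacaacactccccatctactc
Emcn (chr3:137340828-137341077, plus strand): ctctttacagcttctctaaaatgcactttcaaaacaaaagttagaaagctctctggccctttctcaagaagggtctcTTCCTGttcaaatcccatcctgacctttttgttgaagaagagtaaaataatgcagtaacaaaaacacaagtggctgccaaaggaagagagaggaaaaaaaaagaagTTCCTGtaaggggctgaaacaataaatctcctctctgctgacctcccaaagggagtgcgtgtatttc
Tek, Calcrl and Emcn each held 2 copies, and Tie1 and Robo4 held 1. The copy nearest to the start lay 50 bases before it in Robo4, 59 in Tek, 67 in Calcrl and in Emcn, and 209 in Tie1.

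Receptors and signalling proteins of blood endothelium made up most of the members that fell. Of 14 in this group 9 fell, 0 rose and 5 did not pass, with a median change of -0.49, and in 12 of the 14 the mutant was lower in 3 of 3 litters. Among the receptors, those of the angiopoietins came first. Tek encodes TIE2, the receptor that binds angiopoietins and keeps vessels stable. In litters 1, 2 and 3 its value was 8.52, 8.98 and 8.96 in the control and 8.33, 8.12 and 8.16 in the mutant, and values below keep this order of litters. Tek fell by 0.62 ± 0.13 (limma adjusted p = 0.0472), with the mutants all below the controls and the smallest gap in litter 1. Tie1, the related receptor that pairs with TIE2, was 8.18, 8.50 and 8.41 in controls and 7.71, 8.02 and 8.06 in mutants. It fell by 0.43 ± 0.08 (limma adjusted p = 0.0287), by similar amounts in the 3 litters. Ptprb encodes VE-PTP, a phosphatase that removes phosphate from TIE2. Its value was 8.58, 8.69 and 8.77 in controls and 8.03, 8.29 and 8.24 in mutants. Ptprb fell by 0.50 ± 0.08 (limma adjusted p = 0.0189), and the highest mutant lay below the lowest control.

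The angiopoietin genes themselves did not pass. Angpt2, made by endothelium as a context-dependent blocker of TIE2, was a member and stood at -0.14 ± 0.09, with values from 6.66 to 6.74 in controls and from 6.40 to 6.74 in mutants, so that the groups overlapped. Angpt1, the activating ligand made by mesenchymal cells, stood at -0.51 ± 0.13 (limma adjusted p = 0.0832). Its change was -0.16, -0.50 and -0.88 in litters 1, 2 and 3, and its mutants lay below all controls. Angpt4 stood at -0.01.

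The genes of the adrenomedullin receptor fell in each of its parts. Calcrl encodes the receptor protein and Ramp2 the accessory protein that makes it bind adrenomedullin, a peptide that vessels and lymphatics need to form. Calcrl was 9.61, 9.72 and 9.78 in controls and 9.28, 8.94 and 8.89 in mutants, so mutant 1 was the highest of the mutants and still below every control. It fell by 0.67 ± 0.12, which is 1.59-fold (limma adjusted p = 0.0226). Ramp2 was 8.52, 8.73 and 8.64 in controls and 7.95, 8.18 and 8.22 in mutants, with no overlap. It fell by 0.51 ± 0.08 (limma adjusted p = 0.0174) and was among the 2 members that fell without litter 3. A further row of the table is annotated to Ramp2 together with Malat1 and was not used. Its values were 13.8 to 13.9 across all mice, with a change of 0.03, and which RNA it reports was not tested. The other accessory proteins did not pass, Ramp1 at 0.20 ± 0.10 and Ramp3 at -0.02 ± 0.08, nor did the ligand genes Adm (-0.22 ± 0.09) and Adm2 (0.08 ± 0.11). The row of Adm2 is in the dimmest 30% of genes.

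Aplnr, the apelin receptor of growing vessels, had the widest spread of controls among the members that fell. It was 8.64, 9.20 and 9.38 in controls and 8.14, 8.68 and 8.51 in mutants, so control 1 lay below mutant 2 and the groups overlapped, while each mutant was below its own littermate. The fall was 0.63 ± 0.10 (limma adjusted p = 0.0160), and the adjusted p was 0.138 without the litter block and 0.0520 without litter 3. Of its ligand genes, Apela fell by 0.94 ± 0.10 (limma adjusted p = 0.00300), from 5.31 to 5.73 in controls to 4.30 to 4.75 in mutants. The row of Apela is in the dimmest 30% of genes. No background level came with the arrays, so it is not known whether its signal stands above background. This leaves the size of its change uncertain. Apln stood at -0.10 ± 0.09.

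A pair of endothelial lectin-like surface proteins fell together. Cd93 was 8.71, 9.07 and 9.15 in controls and 8.20, 8.59 and 8.51 in mutants, and Clec14a was 7.49, 7.58 and 7.87 in controls and 7.18, 7.12 and 7.18 in mutants. In each gene the mutants lay below all controls, and the Clec14a values of the 3 mutants were close together. Cd93 fell by 0.54 ± 0.08 (limma adjusted p = 0.0136) and Clec14a fell by 0.49 ± 0.10 (limma adjusted p = 0.0331). Their shared matrix ligand multimerin 2, Mmrn2, stood at -0.19 ± 0.08 and did not pass (limma adjusted p = 0.325), although its mutants too lay below all controls.

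Robo4, an endothelial member of the Roundabout family that steadies the vessel barrier, was 7.67, 7.92 and 7.92 in controls and 7.22, 7.49 and 7.62 in mutants. It fell by 0.40 ± 0.08 (limma adjusted p = 0.0402), and each litter left out in turn took it past the threshold, with adjusted p = 0.0796, 0.123 and 0.0976 without litters 1, 2 and 3. The Slit genes, guidance ligands of the Roundabout family, had changes above 0. Whether their proteins act on ROBO4 itself is not addressed by these data. Slit2 rose by 0.43 ± 0.09 (limma adjusted p = 0.0495) and Slit3 stood at 0.51 ± 0.12 (limma adjusted p = 0.0635).

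Eng, endoglin, the co-receptor for the circulating ligand BMP9, did not pass, with -0.48 ± 0.11 (limma adjusted p = 0.0654). Its values were 9.02, 9.09 and 9.18 in controls and 8.22, 8.81 and 8.83 in mutants, so mutant 1 stood far below the others. Without litter 2 the adjusted p was 0.0180. Acvrl1, the gene of the kinase receptor ALK1 that works with endoglin, fell by 0.50 ± 0.10 (limma adjusted p = 0.0308). The ligand genes Gdf2 and Bmp10 stood at 0.08 and 0.10. Their rows are in the dimmest 30% of genes, so a change of these genes could have been missed. The last members of the group were nearer to 0. Rasip1, which keeps vessel lumens open, stood at -0.30 ± 0.08, Nos3, the endothelial nitric oxide synthase, at -0.18 ± 0.08 and S1pr1, the receptor for sphingosine 1-phosphate that lymphocytes also carry, at -0.15 ± 0.11. S1pr1 had the least even litters of these, with 0.14, -0.15 and -0.43.

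**Figure D2:**
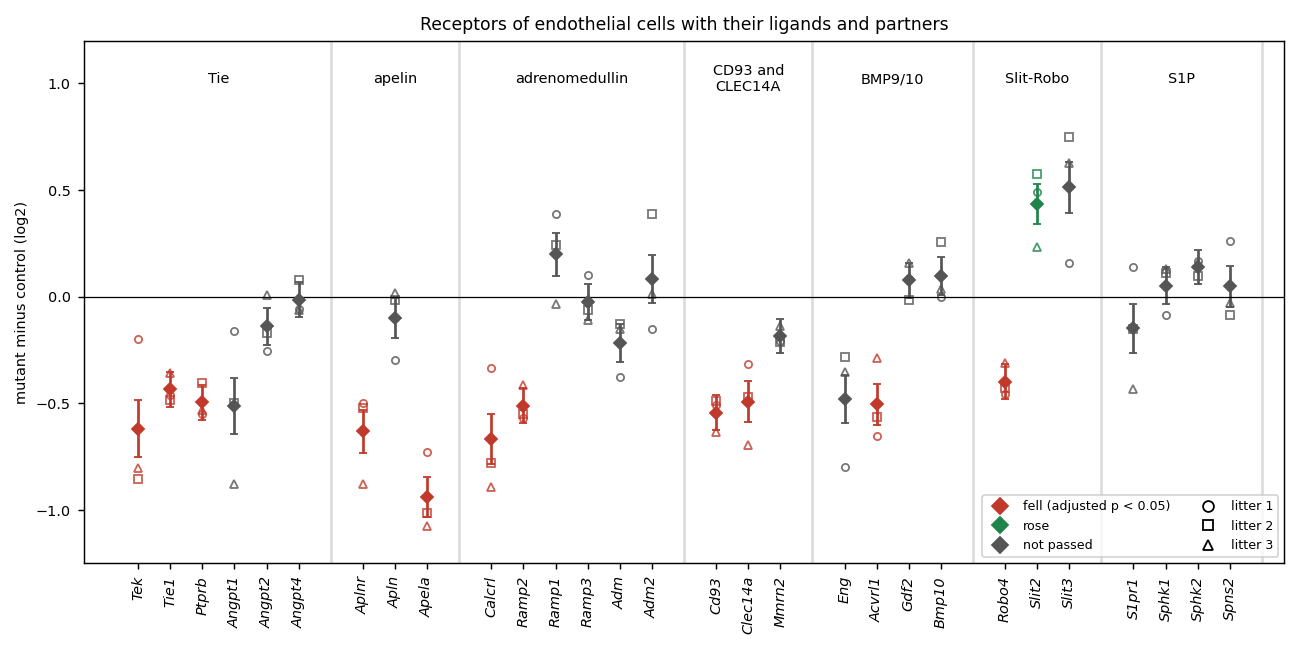
Mutant minus control on the log2 scale (y axis) for endothelial receptors beside ligands and partners of the receptors or their families, as mean ± standard error (diamonds) with the 3 litters as open symbols. Tek, Tie1, Ptprb, Aplnr, Calcrl, Ramp2, Cd93, Clec14a, Acvrl1 and Robo4 fell, while of the ligand genes drawn Apela, which is among the dimmest 30% of genes, fell, Slit2 rose and the others did not pass. Adm2, Gdf2 and Bmp10 are among the dimmest 30% too.

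Of 11 surface and secreted proteins of blood endothelium 4 fell, 0 rose and 7 did not pass, with a median change of -0.28. Plvap forms the diaphragms of fenestrated capillaries, the kind found in gut mucosa. It was 8.70, 9.12 and 9.20 in controls and 8.01, 8.65 and 8.49 in mutants, all below the lowest control. It fell by 0.63 ± 0.09, which is 1.54-fold, with the smallest adjusted p among the members (limma adjusted p = 0.00946), and 0.106 without the litter block. Emcn, the sialomucin endomucin of capillary and venous endothelium, was 8.14, 8.39 and 8.38 in controls and 7.89, 7.59 and 7.34 in mutants. It fell by 0.70 ± 0.14, which is 1.62-fold (limma adjusted p = 0.0389), with changes of -0.25, -0.80 and -1.05 in litters 1, 2 and 3.

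Cdh5, the VE-cadherin of endothelial junctions, was 8.59, 8.62 and 8.83 in controls and 8.13, 8.29 and 8.34 in mutants, with no overlap. It fell by 0.42 ± 0.08 (limma adjusted p = 0.0332). Cd34, a sialomucin that stromal fibroblasts and blood progenitors also make, was 10.67, 10.58 and 10.67 in controls and 10.27, 10.11 and 10.27 in mutants. The controls lay within 0.1 of each other, and Cd34 fell by 0.42 ± 0.08 (limma adjusted p = 0.0290).

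The best known pan-endothelial marker of this group did not pass. Pecam1, which encodes the adhesion protein CD31 and is also made by platelets and leukocytes, was 8.94, 9.26 and 9.33 in controls and 8.87, 8.89 and 8.93 in mutants. Its mutants lay below all controls, but the change was -0.08 in litter 1 against -0.37 and -0.40 in litters 2 and 3, and its mean was -0.28 ± 0.09 (limma adjusted p = 0.188). Cldn5, the claudin of endothelial tight junctions, had the reverse order of litters, with -0.66, -0.23 and -0.15, and a mean of -0.34 ± 0.11 (limma adjusted p = 0.174). Egfl7, a secreted regulator of vessel tube formation, stood at -0.25 ± 0.08 and Esam, an endothelial adhesion molecule, at -0.22 ± 0.08. Vwf, von Willebrand factor, which megakaryocytes also store, stood at -0.10 ± 0.10, and Icam2, an adhesion molecule shared with leukocytes, at -0.06 ± 0.09.

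**Figure D3:**
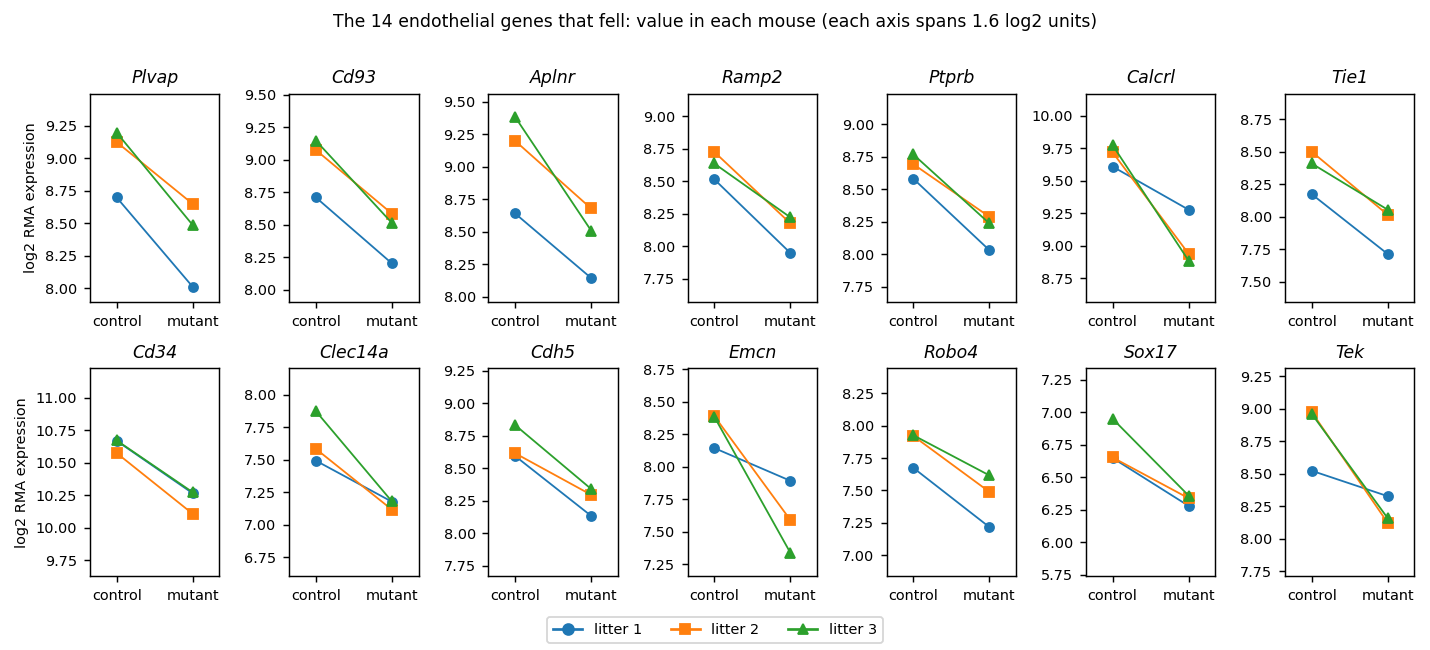
Log2 RMA expression (y axis) of the 14 members that fell, in control and mutant of each litter, with littermates joined by a line. Every line runs down, and only in Aplnr does a control (litter 1) lie below a mutant.

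Of 6 transcription factors 1 fell, 0 rose and 5 did not pass, with a median change of -0.25. The factor that fell was Sox17, a SOXF factor of arterial endothelium. It was 6.65, 6.65 and 6.95 in controls and 6.28, 6.34 and 6.36 in mutants, with no overlap. The change was -0.42 ± 0.09 (limma adjusted p = 0.0446), and the adjusted p was 0.0683 without litter 1 and 0.263 without litter 3. Its relatives Sox7 and Sox18 stood at -0.26 ± 0.09 and -0.23 ± 0.12. In Sox18 the change was -0.60 in litter 1 and -0.09 and -0.01 in the other litters.

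Erg, the ETS factor most restricted to endothelium, had the evenest litters of the factors. It was 7.65, 7.63 and 7.73 in controls and 7.33, 7.31 and 7.43 in mutants, which gave -0.32 ± 0.08 (limma adjusted p = 0.0779). Its mutants lay below all controls, and the adjusted p was 0.0420 with array weights. Fli1, an ETS factor that blood cells share, stood at -0.23 ± 0.09. Tal1, a factor of blood and early endothelial precursors, was 7.02, 7.21 and 7.06 in controls and 6.98, 7.19 and 7.23 in mutants, and at 0.04 ± 0.09 it was the single member with a change above 0.

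None of the 5 lymphatic and scavenging members passed in the limma fit, 2 of them had an unadjusted p under 0.05, and their median change was -0.11, against -0.34 over the 31 blood endothelial members. The difference between these groups was not tested. Prox1, the master factor of lymphatic identity, which some enteroendocrine cells also express, was 6.89, 6.85 and 6.86 in controls and 6.41, 6.97 and 6.96 in mutants, so that mutant 1 was low and the other mutants lay above every control. Lyve1, a hyaluronan receptor of lymphatic capillaries and of some macrophages, followed the same pattern of litters, with 9.02, 8.88 and 9.08 in controls and 8.73, 9.01 and 9.16 in mutants. Without litter 1 the changes turned to 0.11 in each of these genes and did not pass.

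Mmrn1, multimerin 1 of lymphatic endothelium and platelets, was 8.22, 8.03 and 8.33 in controls and 8.10, 7.98 and 8.16 in mutants, with overlapping groups and a change of -0.11 ± 0.08. Stab1 and Stab2 encode the scavenger receptors stabilin 1 and 2 of sinusoidal endothelium, and macrophages also make stabilin 1. Stab1 had the largest change of the 5, with 8.81, 8.80 and 8.68 in controls and 8.33, 8.32 and 8.48 in mutants. Its mutants lay below all controls, and it stood at -0.39 ± 0.09 (limma adjusted p = 0.0639; 0.0389 without the litter block). Stab2 was 7.24, 7.33 and 7.50 in controls and 7.14, 7.08 and 7.24 in mutants, with a change of -0.20 ± 0.08.

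**Figure D4:**
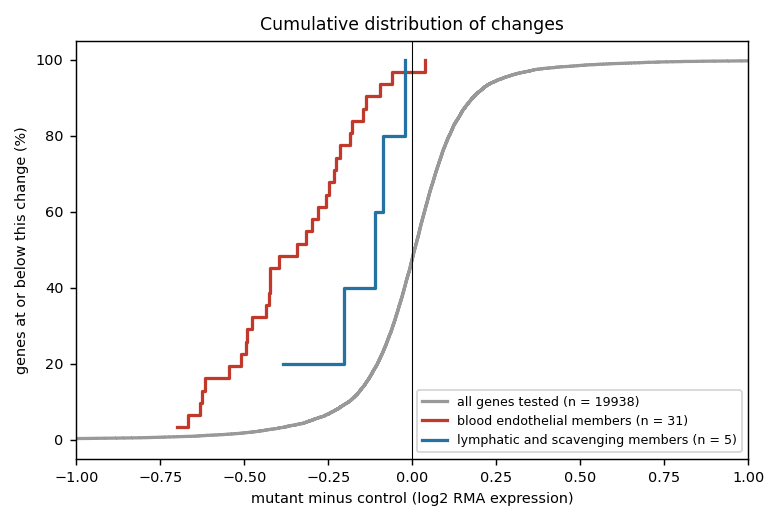
Cumulative share of genes (y axis, percent) at or below a given mutant minus control change (x axis, log2) for all 19938 genes tested, the 31 blood endothelial members and the 5 lymphatic and scavenging members. The curve of blood endothelial members reaches its middle at -0.34, that of the lymphatic group at -0.11 and that of all genes at 0.01.

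The litters were not alike. Emcn, Tek and Calcrl had their smallest change in litter 1 (-0.25, -0.20 and -0.33), where Eng, Cldn5, Sox18, Vwf, Prox1 and Lyve1 had their lowest (-0.80, -0.66, -0.60, -0.36, -0.48 and -0.29). With 1 pair of mice per litter this could not be tested. Xist, the RNA of the inactive X chromosome in females, was 11.96, 5.96 and 5.83 in controls, by litter, and 6.41, 12.03 and 11.92 in mutants, so by this RNA littermates differed in sex in every pair, and litter 1 ran opposite to the others. With the Xist level as a covariate, added after seeing the data, 16 members fell, beside 3.37% of all genes, which included 13 of the 14 (all but Sox17, adjusted p = 0.0505 in limma) and Eng, Cldn5 and Stab1.

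Other genes of blood vessels that are not members were read from lists. Of 34 other blood endothelial genes 7 fell, 1 rose and 26 did not pass, with a median of -0.15. Slco2a1, a prostaglandin transporter of endothelium, fell by 1.11 ± 0.14. Cav1, the coat protein of caveolae, fell by 0.69 ± 0.09, and Kdr, the main receptor for vascular endothelial growth factor, fell by 0.61 ± 0.08. Cav1 is also made by smooth muscle and fibroblasts. Aqp1, a water channel of capillaries that other cells also make, rose by 0.73 ± 0.10 (limma adjusted p = 0.00910), from 9.43 to 9.63 in controls to 9.92 to 10.5 in mutants. Of 16 arterial, venous and tip cell genes 1 fell, and Efnb2, an ephrin of arteries, fell by 0.43 ± 0.08 (limma adjusted p = 0.0272). Of 20 ligands and partners of the member receptors or their families 2 fell and 1 rose, which are Apela, Acvrl1 and Slit2 named above. Of 15 other lymphatic genes 2 fell, and the median was -0.15. In limma 7 of the 15 had an unadjusted p under 0.05. In 8 the mutant was lower in 3 of 3 litters, against 17.1% of all genes. In 6 all mutants lay below all controls, against 9.78% of all genes. Sema3a, a guidance cue, fell by 1.14 ± 0.14, and Itga9, an integrin that smooth muscle shares, fell by 0.88 ± 0.10. The counts of this list include genes of secreted factors (Sema3a, Vegfc, Vegfd and Ccbe1), and which cells made them was not tested. Flt4 stood at -0.30 ± 0.10 and Pdpn at 0.02 ± 0.09, and neither passed.

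Genes of the cell types around the vessels fell in part. Of 12 smooth muscle genes 8 fell (Myh11, Cnn1, Cald1 and Myocd with the smallest p), with a median of -0.55 and a mean level of 11.2 to 11.3 in controls and 10.5 to 10.9 in mutants. By litter the smooth muscle median was -0.76, -0.54 and -0.32, and that of the endothelial members was -0.328, -0.298 and -0.305. Single endothelial members differed in their order of litters, as given above. Whether the changes of these lists are related was not tested. Of 11 fibroblast genes 3 fell (Fn1 at -0.67, Col6a2 at -0.64 and Pdgfra at -0.42), with a median of -0.24, and of 10 pericyte genes 1 fell, with a median of -0.19. Rgs5, a regulator of G protein signalling, fell by 0.51 ± 0.08. Pdgfrb stood at -0.32 ± 0.08 (limma adjusted p = 0.0798). In limma 6 of the 10 pericyte genes had an unadjusted p under 0.05, and 1 of these, Anpep, was above 0 (0.24). So had 5 of the 11 fibroblast genes. All mutants lay below all controls in 5 of the pericyte genes and in 5 of the fibroblast genes, against 9.78% of all genes. At an unadjusted p under 0.05 in limma, 8.03% of all genes were lower.

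Some members are also made by blood cells, and of the genes in the lists of blood cells Cx3cr1 and Alas2 passed. Of 12 macrophage genes 1 fell, the chemokine receptor gene Cx3cr1 (-0.46), and 5 had an unadjusted p under 0.05 in limma. Their median was -0.21, and 8 of the 12 were lower in 3 of 3 litters, against 17.1% of all genes. The mean level of the macrophage genes was 7.98 to 8.11 in controls and 7.84 to 7.98 in mutants. Adgre1, the macrophage antigen F4/80, stood at -0.43 ± 0.10, and Cd163, a scavenger receptor, at 0.66 ± 0.15. None of 10 pan-leukocyte genes passed in limma (2 at an unadjusted p under 0.05), with a mean level of 7.53 to 8.04 in controls and 7.48 to 7.84 in mutants and Cd52 (-0.32) and Was (-0.20) at the smallest p. None of 7 platelet genes passed in limma (0 at an unadjusted p under 0.05; Pf4 stood at 0.15 and Treml1 at 0.12), with a mean level of 6.19 to 6.26 in controls and 6.21 to 6.32 in mutants. Of 6 erythroid genes 1 rose, and Alas2, the first enzyme of haem synthesis in red cells, rose by 0.37 ± 0.08. The platelet genes Ppbp, Gp5 and Clec1b and the erythroid genes Rhag, Gata1, Epb42 and Klf1 are in the dimmest 30% of genes. A change of these genes could have been missed. Among 10 epithelial genes none passed in limma (0 at an unadjusted p under 0.05), with a median of 0.01, Cdx1 at 0.14 and Epcam at 0.11. The part of these other cell types in the endothelial result was not tested.

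**Figure D5:**
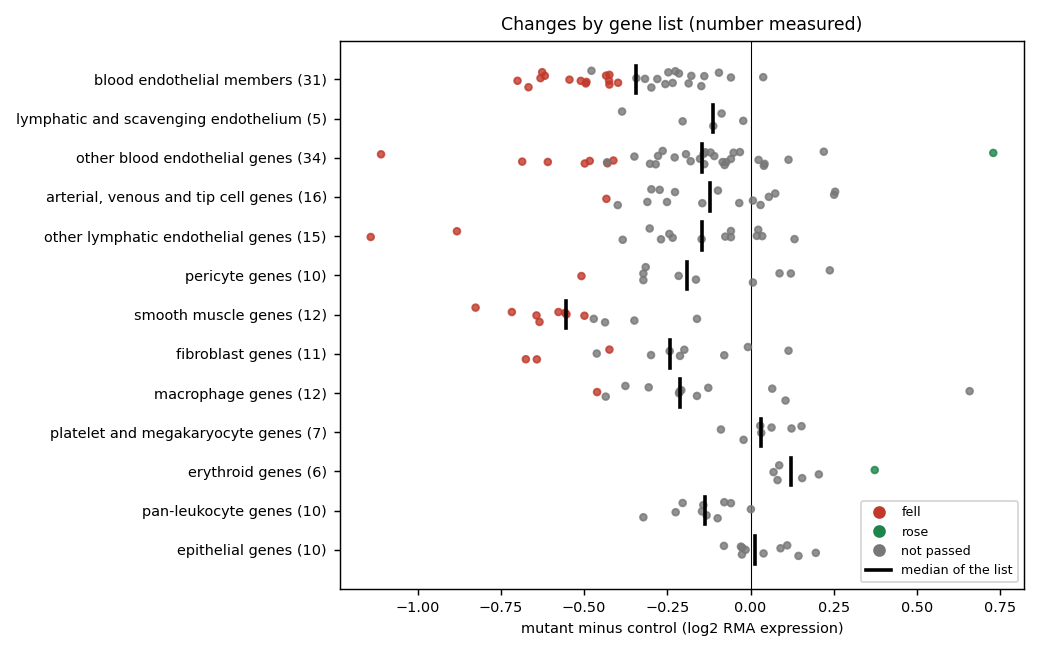
Mutant minus control change (x axis, log2) of every measured gene in 13 lists of vessel, stromal, blood and epithelial cells, with red for genes that fell, green for genes that rose, grey for genes that did not pass and a black bar for the median of the list. Among the lists drawn, medians run from -0.55 for smooth muscle and -0.34 for blood endothelial members to 0.01 for epithelium and 0.12 for erythroid genes.

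The labels were checked on genes that are no members. Ihh stood at -0.30 ± 0.09 and did not pass (limma adjusted p = 0.139), while the hedgehog target Hhip fell by 2.16 ± 0.13, Ptch1 fell by 1.44 ± 0.09 and Gli1 fell by 0.78 ± 0.08. The row of Ihh may include probes outside the deleted part, so it checks the labels in part only. Of 5 colon-enriched genes Car4 fell by 1.40 ± 0.18 and Aqp8 fell by 1.29 ± 0.18, while Car1 (0.63 ± 0.14) and Slc26a3 (0.51 ± 0.13) did not pass and lay above all controls in all 3 mutants. Of 8 small intestine-enriched genes 1 rose, Fabp2, a fatty acid-binding protein (0.73 ± 0.15). Array medians lay between 7.10 and 7.14.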

How the data were processed

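Total RNA of whole colon was hybridised to 1 array per mouse, and the values used are log2 expression values deposited by the authors and made with RMA, per the submitters' processing notes; the genome build is not given in the sources used here. Of 35557 rows, 21789 had 1 gene symbol in the platform annotation, 1621 several and 12147 none here; the row with the highest mean was kept per gene, which left 19938 genes. No member had more than 1 such row, 0 members were among the dimmest 30% of genes, and 36 of 36 matched the RefSeq table by Entrez identifier.

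Mutant and control were compared in R 4.3.3 with the package limma 3.58.1 (linear fit and empirical Bayes, two-sided, Benjamini-Hochberg over 19938 genes, threshold 0.05), with the litter as a fixed block because the design text states that same-numbered mice were littermates. Across genes, the residual of a mutant about its group mean correlated with that of its littermate by 0.0128, 0.00516 and 0.0613. For a mutant and a control of different litters this correlation ran from -0.092 to 0.065, so the littermate values lay within that range. The fit has 2 residual degrees of freedom and a prior of 5.85. The script was tested on simulated data. Values carry no counts, and 3 arrays per group limit the precision.

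The members and gene lists were chosen with earlier results of these data known, so counts over them are a description and no list was tested. Values of each mouse are given for members that fell and for the lymphatic group, and of each other list up to 4 genes that passed, or else the 2 with the smallest p; further genes were named after their values were seen. Alternatives concerned the model (a fit without the litter block, a random litter effect, eBayes with trend and robust, an ordinary paired test, array weights), the values (quantile normalization, centring of arrays on the median), the rows (dimmest 30% removed, rows of a gene averaged, the full table) and each litter left out. The Xist level as a covariate and all rows with a gene name were added after seeing the data.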

Additional observations from a re-analysis of the deposited data

How the results depend on the processing

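The count of 14 members that fell stayed between 11 and 17 for a random litter effect, eBayes with trend and robust, array weights, the filter on dim genes, quantile normalization, centring on the median, averaged rows of a gene, all rows with a gene name and the Xist level as a covariate, and 0 members rose under any alternative. With a random litter effect it was 11, of which 9 were among the 14: Plvap (adjusted p = 0.0764), Tie1 (0.0694), Robo4 (0.0912), Aplnr (0.101) and Cd93 (0.0514) no longer passed, and Erg and Stab1 did. The share of all genes that fell was 3.68% with array weights (17 members) and 3.67% without dim genes (16 members), against 2.11%. It was 3.37% with the Xist level (16 members), 2.52% with trend and robust (16 members) and 2.33% with a random litter effect. With quantile normalization it was 2.2%, with centring 2.23%, with averaged rows 2.01% and with all rows with a gene name 1.81%. The count was 9 without the litter block, beside 1.83% of all genes. With each litter left out in turn it was between 2 and 11 (2 without litter 3, beside 1.5% of all genes). It was 0 in the ordinary paired test without the shared variance (17 members lower at an unadjusted p under 0.05, and 0 of all 19938 genes called) and 0 in limma with all 35557 rows of the table (24 members lower at an unadjusted p under 0.05, and 1 gene of the whole table lower); there the prior was 3.01 degrees of freedom against 5.85, and 12 members fell once unnamed rows were left out. The median change was -0.31 and ranged from -0.34 to -0.31 with a litter left out; it was -0.33 with the Xist level as a covariate. The cause of these shifts was not tested. Changes of the opposite sign were seen for members that did not pass: Lyve1 (0.048) and Prox1 (0.018) with array weights, and 5 members with a litter left out. Over the 3 omissions Vwf ranged from -0.171 to 0.036, Lyve1 from -0.099 to 0.110 and Prox1 from -0.193 to 0.110 (the upper values without litter 1), Icam2 from -0.126 to 0.009 and Tal1 from -0.027 to 0.078. No background level came with the arrays, and Sox17 was the dimmest of the 14 members that fell.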
